A study of Mus musculus with 13 samples.

Results

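The brakes and accelerators of the G1 phase of the cell cycle were examined in Sertoli cells of the adult mouse testis. The 10 genes are the CDK inhibitors *Cdkn1a*, *Cdkn1b*, *Cdkn2a*, *Cdkn2b*, *Cdkn2c* and *Cdkn2d*, the D-type cyclins *Ccnd1*, *Ccnd2* and *Ccnd3*, and the kinase *Cdk6*. They were taken by exact gene symbol, 10 of 27111 genes with a name among 54281 features. None was picked by a measured value, but earlier results of these data were known when they were chosen. RNA came from testis cells of C57Bl/6J males (genotype given as Bl6 wt) aged 3 to 5 months, in 6 control and 7 MSUS samples. MSUS names a paradigm of early life stress in which separation from the mother is combined with stress of the mother. As pups, MSUS males had been taken from the mother for 3 h per day, at varying times, between postnatal day 1 and 14, while she was made to swim at 18°C for 5 min or was restrained for 20 min. Controls had been left alone, and all animals were wild type. The cells had been sorted as diploid by Hoechst, large by forward scatter and high in MitoTracker signal. This gate is meant to leave out haploid spermatids and cells with replicated DNA, but markers of spermatids and spermatocytes were still found. Each library was made from 5 ng of total RNA with a stranded kit over 12 PCR cycles and was read from 1 end over 100 bp.

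Sertoli cells nurse the germ cells of the seminiferous tubule. They divide in fetal and early postnatal life and then leave the cell cycle, so that the adult testis keeps a fixed number of them. Progress from G1 to S phase is driven by D-type cyclins, which bind and activate Cdk4 or Cdk6, and by cyclin E with Cdk2. These kinases phosphorylate the retinoblastoma proteins, which then release E2F transcription factors. The INK4 inhibitors, encoded by *Cdkn2a* to *Cdkn2d*, bind Cdk4 and Cdk6 only, whereas the Cip/Kip inhibitors, encoded by *Cdkn1a* and *Cdkn1b* among others, act on cyclin–CDK complexes more broadly. *Cdkn1b* (p27) is a classical marker of the Sertoli cell that has stopped dividing. What RNA levels cannot show is protein, since p27 and the D cyclins are controlled to a large part by degradation.

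Total counts ranged from 12701776 to 18649945 per sample, and 9776853 to 14383367 of them fell on named genes. Levels are given as log2 CPM, that is, counts scaled to a fixed library total, after TMM scaling and with a prior count of 2. The defining Sertoli cell markers *Amhr2*, *Clu*, *Ctsl*, *Rhox5* and *Sox9* had a mean of 10.18 ± 0.10 log2 CPM in controls (SD, n = 6) against 10.14 ± 0.10 in the MSUS group (SD, n = 7), and every one of them was present in every sample, with at least 1494 counts. Markers of other testis cells were also found, with control means of 7.90 for elongated spermatids, 4.69 for spermatocytes, 3.59 for round spermatids, 2.63 for Leydig cells, 1.43 for endothelial cells, 1.39 for spermatogonia, 1.27 for peritubular myoid cells and -1.21 for macrophages. Among the spermatogonia markers, *Uchl1* was at 7.72 in controls, while *Stra8*, *Kit*, *Zbtb16* and *Sall4* lay from -0.95 to 0.57. Of the macrophage markers, *Lyz2* had 0 counts in all 13 samples. *Adgre1*, *Cd68* and *Ptprc* had at most 10, and *Cd74* had 19 to 69 counts per sample. Across the 9 lists no difference between the groups passed adjustment. The nearest was the endothelial list, at 1.43 ± 0.23 in controls (SD, n = 6) against 1.77 ± 0.21 in the MSUS group (SD, n = 7; two-sided exact permutation test, p = 0.0221, adjusted p = 0.199). In such bulk samples, fewer cells of a type and less RNA per cell cannot be told apart.

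The promoter stretches below are shown for the INK4 pair that lies side by side on chromosome 4 yet differed widely in level, and for *Cdkn1a*, the best known p53 target among the inhibitors. Each is the 150 bases before a RefSeq start site (GRCm38.p6), written 5′ to 3′ on the gene's strand. Capitals mark the letters ACATGT, a core of the p53 element, and the GC box GGGCGG. Both strands were searched.
Cdkn2b, chr4:89311033-89311182, minus strand: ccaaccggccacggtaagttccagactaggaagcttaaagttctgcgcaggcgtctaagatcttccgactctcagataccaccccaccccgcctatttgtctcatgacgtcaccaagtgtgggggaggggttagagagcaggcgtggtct
Cdkn2a, upstream start, chr4:89294620-89294769, minus strand: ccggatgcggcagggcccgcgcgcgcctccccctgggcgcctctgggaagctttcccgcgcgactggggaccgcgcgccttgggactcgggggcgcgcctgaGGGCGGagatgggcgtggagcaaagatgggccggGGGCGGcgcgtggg
Cdkn2a, downstream start, chr4:89282193-89282342, minus strand: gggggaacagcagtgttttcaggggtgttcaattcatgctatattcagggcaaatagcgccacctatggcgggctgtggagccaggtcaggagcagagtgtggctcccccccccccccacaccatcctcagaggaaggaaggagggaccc
Cdkn1a, upstream start, chr17:29090829-29090978, plus strand: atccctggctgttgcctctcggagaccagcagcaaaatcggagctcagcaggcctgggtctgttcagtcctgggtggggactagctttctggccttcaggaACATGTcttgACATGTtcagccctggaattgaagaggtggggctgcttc
The stretch before *Cdkn2b* held neither motif, and the upstream *Cdkn2a* start had 2 GC boxes. Of 32851 mouse promoters of the same length, 28.6% held a GC box and 12.8% held 2 or more. The *Cdkn1a* stretch held ACATGT 2 times, which 0.0944% of promoters did, while 2.34% held it at least once. A second *Cdkn1a* start, chr17:29093619-29093768, is not printed, and its stretch held 0 copies of ACATGT and 2 GC boxes. A match of letters is a description and not a bound site. The 2 *Cdkn2a* starts lie 16413 and 28840 bases from the *Cdkn2b* start. One leads to the transcript of the INK4 protein p16 and the other to that of p19Arf, which acts on p53, and the deposited counts per gene do not separate them.

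The plot of all 10 genes by sample shows their levels, and how they sat in the 6 control samples was asked first. To compare different genes, CPM was divided by the length of the longest coding transcript in kb, and the level is given as log2 of CPM per kb. With this length the 4 highest of the 10 genes were inhibitors, and the 2 lowest were D cyclins. On this scale *Cdkn2b* had 4.83 ± 0.13, *Cdkn1b* 4.80 ± 0.07, *Cdkn2d* 4.66 ± 0.12 and *Cdkn1a* 4.16 ± 0.24 (SD, n = 6 for each), all 4 above the median of 2.90 over all genes tested and above 72.3% to 82.1% of them. *Cdkn2c* was below that median, at 2.26 ± 0.34 (SD, n = 6). The kinase *Cdk6* came at -0.32 ± 0.15, after *Ccnd3* with 1.16 ± 0.40 (SD, n = 6 for each). At the bottom were *Cdkn2a* with -0.50 ± 0.91, *Ccnd1* with -2.51 ± 1.20 and *Ccnd2* with -2.74 ± 0.49 (SD, n = 6 for each), the latter above only 0.635% of the genes tested.

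**Figure D1:**
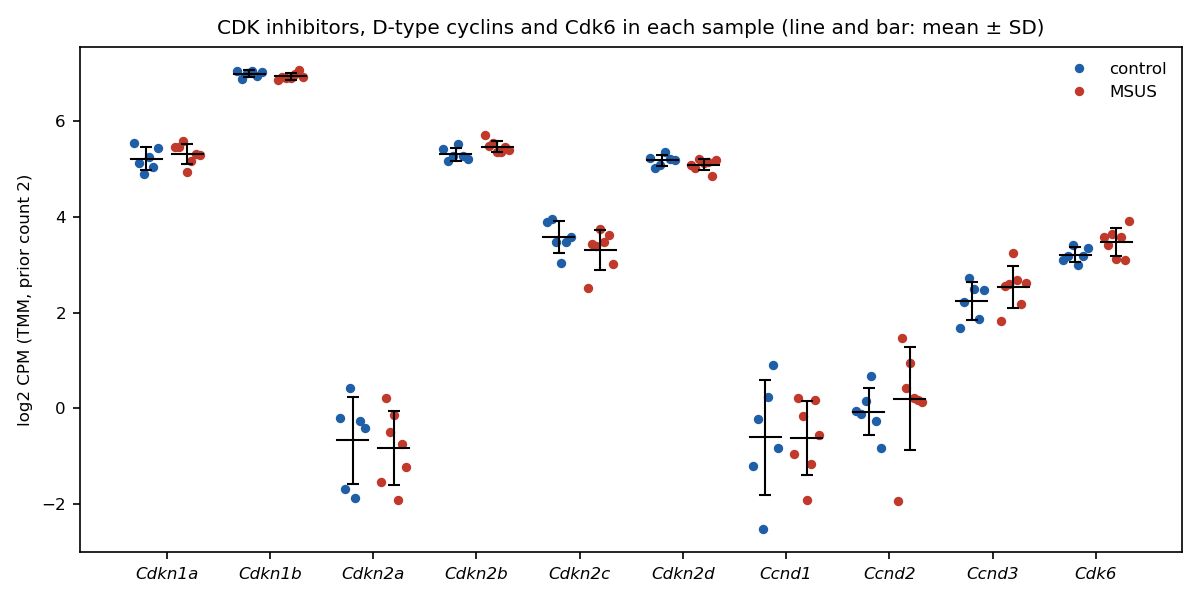
Log2 CPM (TMM scaling, prior count of 2) of the 10 genes in each of 6 control (blue) and 7 MSUS (red) samples; the horizontal line is the mean and the bar the SD. *Cdkn1b* is the highest, with all samples between 6.86 and 7.06, *Cdkn2a*, *Ccnd1* and *Ccnd2* lie near or below 0 with wide scatter, and the colours overlap for every gene.

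**Figure D2:**
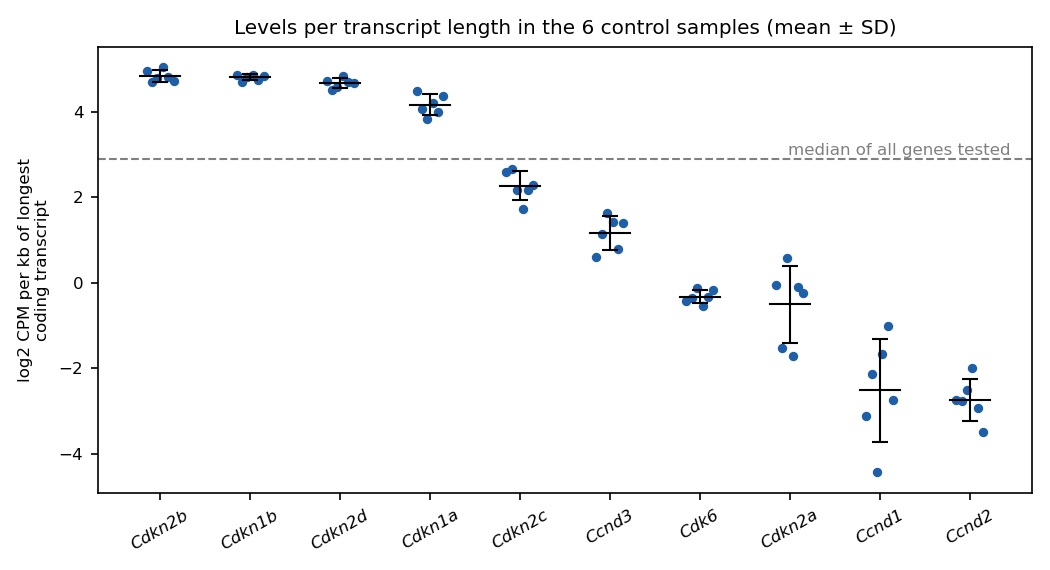
Log2 CPM per kb of the longest coding transcript in the 6 control samples, ordered by mean (line) with SD (bar); the dashed line is the median of 2.90 over all genes tested. The 4 leftmost genes, all CDK inhibitors, lie above the line, and *Ccnd1* and *Ccnd2*, at -2.51 and -2.74, are at the far right.

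Neighbours in this order were compared within samples. The order came from the same 6 control samples, so these p-values describe agreement between samples and do not test the order. Of the 9 neighbouring pairs, 5 differed in the same direction in 6 of 6 samples, each with p = 0.0313 by an exact two-sided sign-flip permutation test. That is the smallest p that 6 samples can give, and it became 0.0563 after adjustment over the 9 pairs, so that none of the 9 passed 0.05. The other 4 pairs had a sample that went against the mean. They were *Cdkn2b* and *Cdkn1b* (3 of 6 samples in the same direction as the mean, exact permutation p = 0.563), *Cdk6* and *Cdkn2a* (3 of 6, exact permutation p = 0.594), *Cdkn2a* and *Ccnd1* (5 of 6, exact permutation p = 0.0625) and *Ccnd1* and *Ccnd2* (4 of 6, exact permutation p = 0.656). The choice of transcript length turned some of these. With the median coding transcript as length, the difference was -0.90 log2 units for *Cdkn2b* minus *Cdkn1b*, -1.32 for *Ccnd3* minus *Cdk6* and -2.44 for *Ccnd1* minus *Ccnd2*. As *Cdkn2a* minus *Ccnd1* was then 2.04, *Ccnd2* lay above *Cdkn2a*, and the lowest genes were *Ccnd1* and the inhibitor *Cdkn2a*. With the union of exons, *Ccnd3* minus *Cdk6* was -0.29. The lengths of *Cdk6* (11525 bases for the longest coding transcript, 697 for the median one) and *Ccnd2* (6330 and 994) differ most.

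Between functional partners the differences kept their direction under all 3 lengths. *Cdk4*, the other partner of the D cyclins, was 51.4-fold above *Cdk6* per kb with the longest transcript, 39.4-fold with the union of exons and 5.98-fold with the median transcript, and it was higher in 6 of 6 control samples (exact permutation p = 0.0313). *Cdk2*, the partner of cyclin E, was 45.9-fold, 21.6-fold and 2.87-fold above *Cdk6* in these 3 measures, also in 6 of 6 samples (exact permutation p = 0.0313). The member with the highest CPM, *Cdkn1b*, was 12.5-fold, 51.7-fold and 9.97-fold above *Ccnd3*, the most abundant D cyclin, in the same 3 measures, again in 6 of 6 samples (exact permutation p = 0.0313). *Cdkn1b* was also 1.56-fold to 2.67-fold above *Cdkn1a* in 6 of 6 samples (exact permutation p = 0.0313). *Cdkn2b* was 39.3-fold to 52.7-fold above its chromosomal neighbour *Cdkn2a* (6 of 6 samples, exact permutation p = 0.0313), values that lean on the prior count because *Cdkn2a* had 1 to 15 counts per control sample. These 5 pairs were chosen with the levels known. Their exact permutation p of 0.0313 is the smallest possible, and adjustment over them cannot correct for that choice. It gives no support to the differences beyond the agreement of the samples. When CPM per kb was summed, the 6 inhibitors came to 97.1 to 115 in controls and the 3 D cyclins to 1.63 to 3.17, a ratio from 31.2 to 70.2 with a median of 39.8. In MSUS samples the ratio ran from 21.2 to 64.3 with a median of 33.5, so the groups overlapped. With the median transcript as length the control ratio was 16.5 to 36.0 (median 22.1) and with the union of exons 102 to 211 (median 115), and the groups overlapped there too. With the longest transcript the lowest ratio was that of MSUS 11 and the highest that of control 9.

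Whether MSUS left a trace in these genes in the adult was the next question. Of the 10 genes, 8 passed the count filter, and *Cdkn2a* and *Ccnd1* did not. Only *Cdkn2b* had an unadjusted p under 0.05 in limma's voom fit, 1 of 8, where 5.42% of all 14421 genes tested did (3.02% higher and 2.40% lower in MSUS samples). None of the 10 passed adjustment. Nor did any other gene, as limma gave 0 genes with an adjusted p under 0.05 and 781 with an unadjusted one, and edgeR's quasi-likelihood test and DESeq2 also gave 0, with 793 and 835 unadjusted. Among the 781, 55.7% were higher in MSUS samples, and 40.9% of the corresponding genes were when libraries were scaled by their size alone. The 8 log2 fold changes ran from -0.29 to 0.32 with a median of 0.15, 5 positive and 3 negative, while the median over all genes tested was -0.0018. The groups overlapped for all 10 genes, as they did for all but 0.139% of the genes tested. These are samples of separate mice, whose litters and cages are not analysed here.

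**Figure D3:**
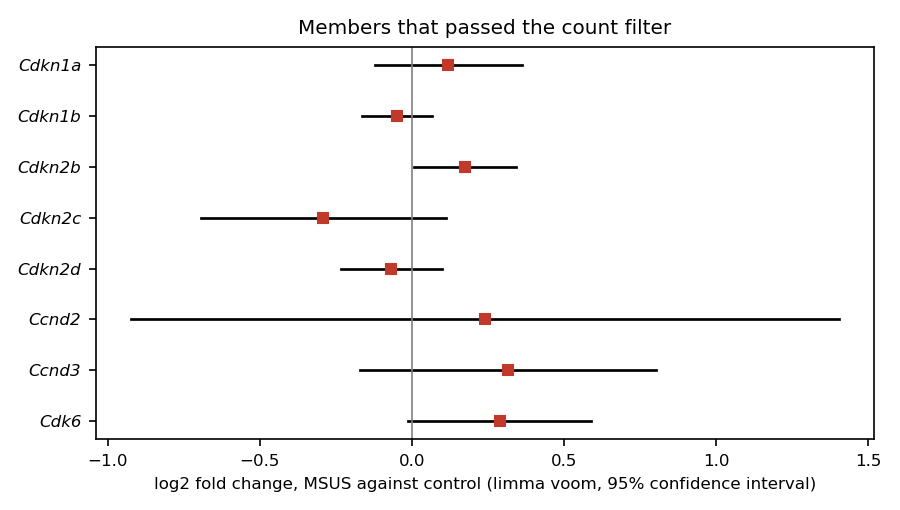
Log2 fold change of MSUS against control samples (squares) with its 95% confidence interval (lines) from limma's voom fit, for the 8 genes that passed the count filter. The interval of *Cdkn2b* (0.17) begins just above 0 and that of *Cdk6* (0.29) just below; *Ccnd2*, with few counts, has the widest, from -0.92 to 1.40.

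Of the Cip/Kip family, *Cdkn1b* had the highest CPM of all 10 genes, before division by length, and the lowest SD within groups. It lies on chromosome 6 of GRCm38 from 134920401 to 134925513 (GENCODE vM21, as for all gene positions). Control samples ran from 6.88 to 7.05 log2 CPM with a median of 7.01, and MSUS samples from 6.86 to 7.06 with a median of 6.91. Nearly the whole MSUS range is that of the controls, and 6 of 7 MSUS samples lay below the control mean. The means were 6.99 ± 0.07 (SD, n = 6) and 6.93 ± 0.07 (SD, n = 7), for a log2 fold change of -0.05 (standard error, SE, 0.05, 95% confidence interval -0.17 to 0.06, limma's adjusted p = 0.924). On the linear scale the interval spans changes from -10.8% to 4.54%. Behind these values were 1254 to 1714 counts per sample. The SD within groups, 0.068, was 1.77 times what counting alone gives, and only 0.818% of the genes tested had a smaller one. Low spread comes with high level, so the 1421 genes within 0.5 log2 units of *Cdkn1b* were taken as well, and 2.74% of them had a smaller SD.

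**Figure D4:**
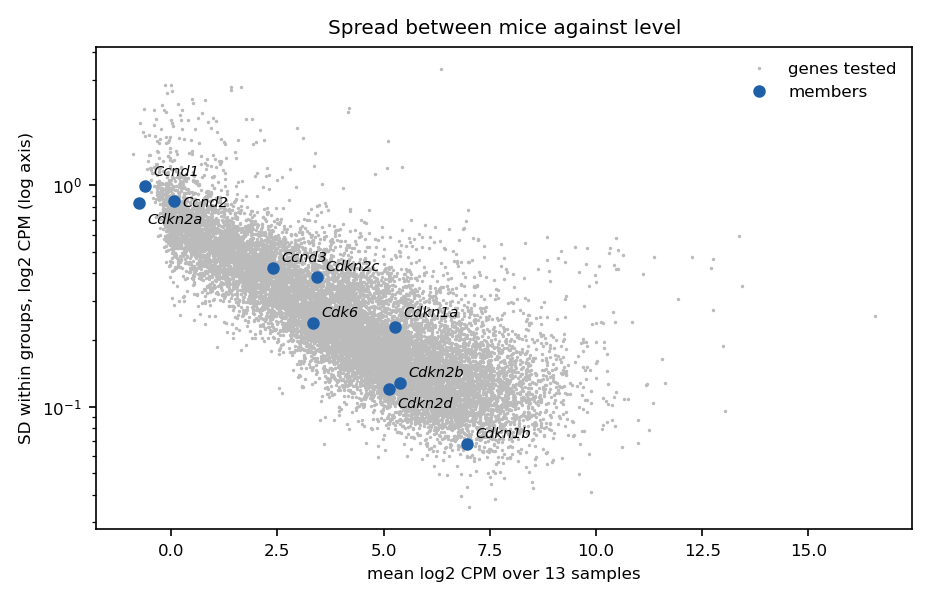
SD of log2 CPM within groups (log axis) against mean log2 CPM over 13 samples for all genes tested (grey) and the 10 genes described (blue). *Cdkn1b* lies at the lower edge of the cloud with an SD of 0.068, and *Cdkn1a*, at 0.23, lies above most genes of its level.

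*Cdkn1a* (p21), which p53 switches on after DNA damage and other stress, lies on chromosome 17 from 29090976 to 29100727. Its levels went from 4.89 to 5.54 log2 CPM in controls, with a median of 5.19, and from 4.94 to 5.58 in MSUS samples, with a median of 5.30. Both groups covered the same range, and 6 of 7 MSUS samples fell inside that of the controls. The log2 fold change was 0.12 (SE 0.11, 95% confidence interval -0.12 to 0.36, limma's adjusted p = 0.907). In contrast to *Cdkn1b*, its SD within groups of 0.23 was 3.33 times that of counting, and 80.3% of 2285 genes of like level had a smaller one. A part of its sequence, 3.24% of the 31-base words of its exons, is shared with other genes, and its estimated counts were whole numbers in only 6 of 13 samples, to a tolerance of 0.005. A list of 16 other p53 targets was set beside it. Of these, 14 were tested and 0 had p under 0.05 by limma in either direction, against 5.42% of all genes, although 1 or 2 did by other settings, with a median log2 fold change of 0.01. They ranged in controls from *Sesn2*, a stress-induced sestrin, with 7.68 ± 0.09 log2 CPM (SD, n = 6) against 7.64 ± 0.18 in the MSUS group (SD, n = 7), to *Eda2r*, a receptor of the TNF receptor family, with 1 to 5 counts in controls and not tested.

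Of the INK4 family, *Cdkn2b* (p15) had the highest CPM. Per kb it was 0.16 ± 0.07 log2 units above *Cdkn2d* in controls (SD, n = 6), but -0.0075 ± 0.07 with the median transcript as length. *Cdkn2b* lies on chromosome 4 from 89306299 to 89311039. Control samples had from 5.16 to 5.51 log2 CPM with a median of 5.27, and MSUS samples from 5.34 to 5.69 with a median of 5.46. All 7 MSUS samples lay above the control mean, but 5 of them still lay within the control range, and only MSUS 1 (5.69) and MSUS 6 (5.54) exceeded the highest control. The means were 5.30 ± 0.13 (SD, n = 6) and 5.46 ± 0.12 (SD, n = 7), for a log2 fold change of 0.17 (SE 0.08, 95% confidence interval 0.0064 to 0.34, unadjusted p = 0.0427, limma's adjusted p = 0.878). That is a rise of 12.8%, with 375 to 596 counts per sample, and its p ranked 657 of 14421. Leaving out single samples moved the unadjusted p across 0.05 in 8 of 13 limma fits, namely without control 10 (0.109), control 12 (0.0715), control 22 (0.0694), control 24 (0.0834), MSUS 1 (0.0968), MSUS 5 (0.0626), MSUS 6 (0.0732) or MSUS 23 (0.0573). The log2 fold change stayed between 0.13 and 0.21 in all 13. By edgeR's quasi-likelihood test the unadjusted p was 0.0515 and by DESeq2 it was 0.0458.

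*Cdkn2c* (p18), an INK4 protein that restrains Cdk4 and Cdk6 in many differentiating cells, lies on chromosome 4 from 109660876 to 109667189. Its levels ran from 3.03 to 3.96 log2 CPM in controls, with a median of 3.53, and from 2.52 to 3.75 in MSUS samples, with a median of 3.42. The lowest was MSUS 1, with 64 counts, and the next were MSUS 26 (3.01) and control 14 (3.03), so low samples were found in both groups. The means were 3.57 ± 0.34 (SD, n = 6) and 3.31 ± 0.42 (SD, n = 7), for a log2 fold change of -0.29 (SE 0.19, 95% confidence interval -0.69 to 0.11, limma's adjusted p = 0.878). Without MSUS 1 it was -0.15.

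The level of *Cdkn2c* moved with the spermatocyte markers *Sycp1*, *Sycp3*, *Piwil1*, *Hormad1*, *Ccna1* and *Insl6*. Over the 13 samples Pearson's r with their mean log2 CPM was 0.88 (permutation p = 0.00017, adjusted p = 0.0041) and Spearman's rho was 0.81 (permutation p = 0.00124, adjusted p = 0.0298), adjusted over 24 relations of the 8 tested genes with 3 marker lists. It was 0.79 within the 6 controls and 0.92 within the 7 MSUS samples, 0.77 to 0.91 when any 1 sample was left out, and 0.68 without the 2 samples farthest from the median of the markers. *Cdkn2b* had the opposite sign, with r = -0.74 (permutation p = 0.0039, adjusted p = 0.0469) and rho = -0.65 (permutation p = 0.0194, adjusted p = 0.232). Within groups r was -0.63 in controls and -0.82 in MSUS samples. This relation rests on MSUS 1, without which r was -0.54 (permutation p = 0.0716), and r fell to -0.43 without the 2 farthest samples. The spermatocyte list itself was at 4.69 ± 0.22 log2 CPM in controls (SD, n = 6) against 4.52 ± 0.38 in the MSUS group (SD, n = 7; two-sided exact permutation p = 0.354, adjusted p = 0.589), from 3.86 in MSUS 1 to 5.07 in MSUS 11. With that list as a covariate in limma, the log2 fold change was -0.09 for *Cdkn2c* (unadjusted p = 0.494) and 0.12 for *Cdkn2b* (unadjusted p = 0.130). Whether RNA of spermatocytes in the sorted cells makes up a part of these levels was not tested.

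**Figure D5:**
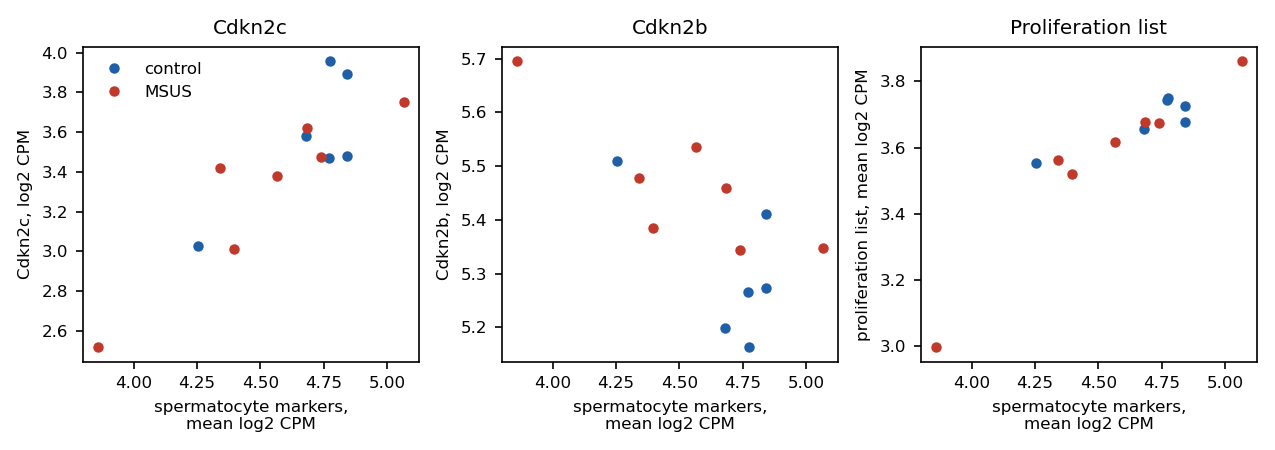
Log2 CPM of *Cdkn2c* (left) and *Cdkn2b* (middle) and the mean log2 CPM of 23 proliferation genes (right) against the mean log2 CPM of 6 spermatocyte markers, for 6 control (blue) and 7 MSUS (red) samples. *Cdkn2c* (r = 0.88) and the proliferation genes (r = 0.93) go up with the markers and *Cdkn2b* goes down (r = -0.74), with MSUS 1 at the far left of each panel.

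*Cdkn2d* (p19Ink4d), the fourth INK4 protein, lies on chromosome 9 from 21288410 to 21291407. Controls had from 5.01 to 5.35 log2 CPM, with a median of 5.19, and MSUS samples from 4.85 to 5.21, with a median of 5.12. All but MSUS 23, the lowest, were within the range of the controls. The log2 fold change was -0.07 (SE 0.08, 95% confidence interval -0.23 to 0.10, limma's adjusted p = 0.925), with 270 to 497 counts per sample. *Cdkn2a*, which is associated with senescence and ageing, lies on chromosome 4 from 89274471 to 89294653 and was at the edge of detection. Its counts went from 1 to 15 in controls, with a median of 7, and from 1 to 11 in MSUS samples, with a median of 4, where 3 counts corresponded to 0.209 to 0.307 CPM. High and low samples occurred in both groups, and an exact two-sided permutation test of log2 CPM gave p = 0.716 (smallest possible 0.00117). Its SD within groups was 1.40 times that of counting alone, a ratio that is too low because only the former SD includes the prior count.

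The D cyclins, which relay growth signals to Cdk4 and Cdk6, were low throughout. *Ccnd3*, the D cyclin of many differentiated cells, lies on chromosome 17 from 47505051 to 47599691. It ran from 1.69 to 2.72 log2 CPM in controls, with a median of 2.34, and from 1.83 to 3.25 in MSUS samples, with a median of 2.59. MSUS 11 (102 counts) was the only sample above the controls. The log2 fold change was 0.32 (SE 0.23, 95% confidence interval -0.17 to 0.80, limma's adjusted p = 0.887). Its exons share 4.32% of their 31-base words with other genes, mostly with the pseudogene *Ccnd3-ps*, and its estimated counts were whole in 1 of 13 samples, so reads may be split between the copies. With the spermatocyte markers as a covariate the log2 fold change was 0.49 (unadjusted p = 0.0442).

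*Ccnd2*, which responds to follicle-stimulating hormone in granulosa cells of the ovary, lies on chromosome 6 from 127125162 to 127152193. Its counts were 4 to 14 in controls, with a median of 10, and 1 to 29 in MSUS samples, with a median of 11. MSUS samples held both the lowest (MSUS 1) and the highest count (MSUS 5). The log2 fold change was 0.24 (SE 0.55, 95% confidence interval -0.92 to 1.40, limma's adjusted p = 0.960), and it was 0.74 without MSUS 1 (unadjusted p = 0.0587) and -0.0084 without MSUS 5. *Ccnd1*, the D cyclin most often amplified in tumours, lies on chromosome 7 from 144929931 to 144939925. It had 0 to 23 counts in controls and 1 to 11 in MSUS samples, with medians of 7 and 6. Control 12 had 0 counts and control 22 had 23, so the controls alone covered all MSUS samples (exact two-sided permutation test of log2 CPM, p = 0.967). The SD within groups was 2.02 times that of counting alone for *Ccnd2* and 1.83 times for *Ccnd1*, ratios that the prior count again lowers.

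*Cdk6*, a kinase partner of the D cyclins, lies on chromosome 5 from 3341485 to 3531008. Controls lay close together, from 2.99 to 3.41 log2 CPM with a median of 3.18, and MSUS samples went from 3.10 to 3.92 with a median of 3.57. Of the 7 MSUS samples only MSUS 11 (3.12) and MSUS 23 (3.10) lay in the control range. The other 5 were above it, but MSUS 5 was practically at its upper end, with 3.4095 against 3.4091 in control 12. The means were 3.20 ± 0.15 (SD, n = 6) and 3.47 ± 0.29 (SD, n = 7), for a log2 fold change of 0.29 (SE 0.14, 95% confidence interval -0.01 to 0.59, unadjusted p = 0.0589, limma's adjusted p = 0.878), with 77 to 178 counts per sample. By DESeq2 the unadjusted p was 0.0413 and by edgeR's quasi-likelihood test 0.0495. In limma's fits it fell to 0.0458 without control 12, 0.0233 without MSUS 11 and 0.0274 without MSUS 23, and the log2 fold change stayed between 0.21 and 0.35 whichever sample was left out. Over 24 alternatives the adjusted p was at or above 0.585. Its exons share 2.64% of their 31-base words with other genes. *Cdk4* had 6.40 ± 0.15 log2 CPM in controls and 6.32 ± 0.13 in MSUS samples, for a log2 fold change of -0.07 (limma's adjusted p = 0.925).

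The rest of the G1 to S machinery was then counted. Of 28 further genes of this kind, 27 were tested, 0 were higher and 1 was lower in MSUS samples at an unadjusted p under 0.05, against 3.02% and 2.40% of all genes, with a median log2 fold change of -0.04. The one was *Tfdp1*, the DNA-binding partner of the E2F factors, at 6.21 ± 0.09 log2 CPM in controls (SD, n = 6) against 6.04 ± 0.09 in the MSUS group (SD, n = 7), with a log2 fold change of -0.17 (SE 0.06, unadjusted p = 0.0167, limma's adjusted p = 0.878). The highest was the retinoblastoma-like *Rbl2*, a pocket protein typical of resting cells, with 7.20 ± 0.07 in controls (SD, n = 6) against 7.15 ± 0.07 in the MSUS group (SD, n = 7). The lowest was *E2f2*, an activating E2F factor, with 0 to 11 counts and not tested.

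DNA replication and mitosis were represented by 24 genes, in cells sorted by a gate meant to leave out those with replicated DNA. Of these, 23 were tested, 0 were higher and 1 was lower in MSUS samples at an unadjusted p under 0.05, near the 3.02% and 2.40% of all genes. This was *Mcm6*, a subunit of the replicative helicase, at 4.30 ± 0.17 log2 CPM in controls (SD, n = 6) against 4.05 ± 0.11 in the MSUS group (SD, n = 7), with a log2 fold change of -0.24 (SE 0.10, unadjusted p = 0.0299, limma's adjusted p = 0.878). Another helicase subunit, *Mcm3*, was the highest of the list with 5.93 ± 0.15 in controls (SD, n = 6), and the S and G2 phase cyclin *Ccna2*, with 0 to 20 counts, was the lowest and not tested. *Mki67*, the usual marker of cycling cells, was at 3.66 ± 0.33 in controls (SD, n = 6) against 3.52 ± 0.59 in the MSUS group (SD, n = 7), above 0 in every sample with 52 to 240 counts. The median log2 fold change of the list was -0.16, with 5 positive and 18 negative values, and without MSUS 1 it was -0.04, with 10 positive and 13 negative. The mean of the 23 genes ran from 3.55 to 3.75 log2 CPM in the control samples and from 3.00 to 3.86 in the MSUS group, where MSUS 1 was the lowest and the next had 3.52, and it rose with the spermatocyte markers (r = 0.93, rho = 0.93, permutation p = 1e-05 for each, the smallest that 100000 permutations can give). Within controls r was 0.88, within MSUS samples 0.96, and it stayed between 0.92 and 0.95 without any 1 sample. This relation was looked at after the values were seen. Despite the gate, the spermatocyte marker *Sycp1* had 357 to 975 counts per sample. Which cells of the preparation carried the RNA of the replication and mitosis genes was not tested.

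Polycomb proteins are known repressors of the *Cdkn2a*–*Cdkn2b* locus, and 13 of their genes were followed. All 13 were tested and 0 had an unadjusted p under 0.05 in limma's fit, where 5.42% of all genes had, with 4 positive and 9 negative log2 fold changes and a median of -0.07. The lowest in controls, *Cbx2*, had 0.60 ± 0.70 log2 CPM in controls (SD, n = 6) against 0.16 ± 0.48 in the MSUS group (SD, n = 7), from 6 to 35 counts. It encodes a chromobox subunit that reads the polycomb mark on histone H3.

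Finally, genes that varied like the most abundant member of each kind were sought over the 13 samples after the group means had been removed, among 9527 or 9528 genes with a mean of at least 3 log2 CPM. For *Cdkn2b* the closest were *Eya3* (r = 0.95), *Mcoln1* (r = 0.92) and *Dnajc14* (r = 0.91). *Cdk6* was followed most closely by *G3bp2* (r = 0.93), *Actr2* (r = 0.92) and *Galnt11* (r = 0.89), and *Cdkn1b* by *G6pc3* (r = 0.92), *Ssbp4* (r = 0.89) and *Mesd* (r = 0.88). The closest to *Ccnd3* were *Gtf2a2* (r = 0.87), *Mak* (r = 0.86) and *Ulk2* (r = 0.84). In each case the top 0.1% of all genes began between 0.80 and 0.85, so these are the upper ends of broad distributions. Library depth and the levels of cell markers varied between the samples, and their part in these relations was not tested.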

How the data were processed

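RNA sequencing covered sorted Sertoli cells of 6 control and 7 MSUS males, each 1 library. The authors trimmed the reads with Trim Galore 0.6.5, assigned them to GENCODE vM23 transcripts with Salmon 1.1.0 and deposited estimated counts per gene, not normalized. How transcripts were summed to genes is not given in the sources used here. Estimated counts were rounded to whole numbers. Features with no gene name, 20.7% to 26.7% of the counts, were left out. For log2 CPM, counts of all named genes were scaled by TMM (edgeR 4.0.16, R 4.3.3). For the test, counts were filtered with filterByExpr, scaled by TMM again and fitted with limma 3.58.1 voom, two-sided. Benjamini-Hochberg adjustment ran over 14421 genes. Fold changes come from this fit and need not equal the difference of the printed means. The fit was tried on simulated counts with changes of 0.5 and 1 log2 units and the same spread setting for all genes. Of these changes, 16.3% and 88.2% passed adjustment. Changes as small as those of the members were not simulated. DESeq2 1.42.0 and edgeR's quasi-likelihood test were run as alternatives. Exact permutation tests between the groups used scipy 1.17.1, and the sign-flip and correlation permutations were coded separately. In each of 78 sample pairs the counts differed by more than sampling noise (5.81 to 45.0 times as much), so all samples were counted separately. At 12701776 to 18649945 counts per sample, the SD of the members within groups was 1.40 to 3.33 times that of counting alone. The SD of counting was computed without the prior count, so the ratios are too low for genes with few counts.

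The members and lists were chosen with earlier results of these data known. Named were the 10 members, in each list the genes with p under 0.05 and the highest and lowest in controls, and the 3 genes most like the highest member of each role; 1 of these is not reported here. *Cdk2*, *Cdk4*, *Mki67* and *Ccnd3-ps* were added with values seen. For positions and lengths, GENCODE vM21 (GRCm38) was used, which precedes the authors' release, and for promoters RefSeq (GRCm38.p6). Alternatives were other tests, scalings, filters, marker covariates and leaving out each sample. Leaving out samples in the relations to marker lists and in the proliferation list, and the lengths used for partner genes, for *Cdkn2d* and for the ratio, were chosen after seeing the data.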

Additional observations from a re-analysis of the deposited data

Results flagged for a closer look

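In 5 of 38 groups of values, the gap between 1 sample and the next, as a share of the group's range, exceeded Dixon's 95% critical value. Chance flags about 1 in 20 groups, here 1.9. *Ccnd2* in MSUS 1 was at -1.94 log2 CPM, a single count, against 0.14 to 1.48 in the other MSUS samples. The other 4 concern marker lists of other cells. The spermatocyte list of control 14 was low, at 4.25 log2 CPM against 4.68 to 4.84 in the other controls, and *Cdkn2c* was lowest among the controls in the same sample. The round spermatid list was low in control 10 (3.23 against 3.61 to 3.71) and high in MSUS 11 (4.61 against 3.33 to 3.85), the sample with the highest *Ccnd3*. The Leydig cell list of control 9 was at 1.35 against 2.54 to 3.18, and that sample had the lowest *Ccnd3* of the controls. In control 10, *Ccnd3* was at 2.21 log2 CPM, inside the range of the other controls. Relations of the members to the round spermatid and Leydig cell lists were not computed. The part of these other cells in the levels was not tested.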

How the results depend on the processing

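No gene passed an adjusted p of 0.05 in any of 24 alternatives. The count of genes with an unadjusted p under 0.05, 781, was 1182 with no count filter, 1172 with the elongated spermatid score as covariate, and 534 to 1121 when 1 sample was left out. Of the 10 members, 2 were called by DESeq2 (*Cdkn2b* and *Cdk6*), 0 with upper quartile scaling, library size alone, no filter or unnamed features kept, and 0 to 2 with 1 sample left out. *Cdkn2b* lost its unadjusted call in 15 of 24 alternatives, with log2 fold changes from 0.12 to 0.21, *Cdk6* gained one in 6 and *Ccnd3* in 1. *Ccnd2* went from -0.0084 (without MSUS 5) to 0.74 (without MSUS 1) and did not pass the stricter filter. The p53 targets had 2 calls with edgeR, sample quality weights or no filter, and 1 with DESeq2, upper quartile or library size. The G1 to S list had 2 with the elongated spermatid score. With 1 sample left out the lists had 1 to 2 (G1 to S), 0 to 2 (proliferation), 0 to 2 (p53) and 0 to 1 (polycomb). With library size alone, 1 relation to marker lists passed, that of *Cdkn2c*. The cause of these moves was not tested. *Cdkn2a*, *Ccnd1* and *Ccnd2* had few counts, and their SD within groups was 1.40, 1.83 and 2.02 times that of counting alone. The prior count lowers these ratios. No paired analysis was possible because the animal numbers are not shared between the groups.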
